A study of Mus musculus with 24 samples.

Results

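The genes described are neural lineage genes, 10 of 21887 protein-coding genes of the mm10 annotation, which were followed through peak lists of 3 pluripotency factors and acetylated histone H3 in embryonic stem cells of the mouse. The genes were Nes, Vim, Sox1, Sox11, Pax6, Olig1, Olig2, Slc1a3, Ptprz1 and Pou3f2. A peak was linked to a gene when its midpoint lay inside the gene or within 20 kb of either end, which gave 162 of the 246925 listed peaks (0.0656%). The study used chromatin immunoprecipitation and sequencing (ChIP-seq), in which DNA fixed to a protein is pulled down with an antibody and read. The cells were the C57BL/6-129 line V6.5, labelled E3.5. They were grown on irradiated feeder cells in serum with the cytokine LIF, then on gelatin with the inhibitors PD98059 and Chir99021 for at least 2 passages. Asynchronous libraries came from growing cultures. Mitotic libraries came from cultures given nocodazole, a drug that blocks the spindle, for 7 h, with the dividing cells then shaken off. The dose is labelled as 100 ug/ml, which is far above common use and may be an error of unit. Klf4 had 3 asynchronous and 3 mitotic libraries, Oct4 and Sox2 had 1 and 2 each, and H3K27ac had 2 and 2.

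Neural progenitors build their cytoskeleton from the intermediate filaments nestin (Nes) and vimentin (Vim). Their identity is set by transcription factors of the Sox, Pax, Olig and POU families, and radial glia carry the glutamate transporter Slc1a3 and the receptor phosphatase Ptprz1 on their surface. Embryonic stem cells are held before this choice by the zinc finger factor Klf4, the POU factor Oct4 and the HMG box factor Sox2, which neural progenitors also keep. Acetylation of lysine 27 of histone H3 (H3K27ac) sits at active promoters and enhancers. In mitosis chromosomes condense, and many factors are known to leave part of their sites.

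The promoters of 3 genes are shown because they differ in which peaks lay over them. The Vim promoter lay under peaks of both Klf4 and H3K27ac in both states. That of Nes lay under Klf4 peaks of both states and an H3K27ac peak of 1 asynchronous library. At the Olig2 promoter asynchronous H3K27ac regions reached only the end far from the start, up to chr16:91225340. Each is the 250 bases before the transcription start from RefSeq (GRCm38.p6), written 5′ to 3′ on the gene's strand. For Ptprz1 the 30 bases around a motif match inside the Klf4 peak at its start are given. Capitals mark matches to the motifs searched, which were GGGTGTG and GGGCGTG (Klf family), ATGCAAAT (POU factors) and CATTGTT (Sox factors) on both strands.
Vim promoter, chr2:13574061-13574310, plus strand: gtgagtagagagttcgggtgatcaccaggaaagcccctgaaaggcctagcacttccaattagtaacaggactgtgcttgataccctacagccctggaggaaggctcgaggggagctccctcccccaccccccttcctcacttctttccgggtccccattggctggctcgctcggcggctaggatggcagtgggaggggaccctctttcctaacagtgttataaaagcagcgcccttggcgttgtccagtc
Nes promoter, chr3:87970843-87971092, plus strand: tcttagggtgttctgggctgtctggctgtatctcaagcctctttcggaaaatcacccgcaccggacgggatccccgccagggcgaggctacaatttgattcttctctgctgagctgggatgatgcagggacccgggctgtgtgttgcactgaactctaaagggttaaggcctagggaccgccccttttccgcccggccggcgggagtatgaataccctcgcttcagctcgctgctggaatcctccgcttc
Olig2 promoter, chr16:91225300-91225549, plus strand: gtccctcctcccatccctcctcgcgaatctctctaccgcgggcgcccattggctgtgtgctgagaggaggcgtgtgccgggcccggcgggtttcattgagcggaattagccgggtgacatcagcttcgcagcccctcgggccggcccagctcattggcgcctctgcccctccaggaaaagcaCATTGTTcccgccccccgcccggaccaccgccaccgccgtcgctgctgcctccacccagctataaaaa
Ptprz1 site, chr6:22875390-22875419, plus strand: ctgggccccgcCACGCCCctctttctgctg
The 4 motifs occurred in 6.93% (GGGTGTG), 7.55% (GGGCGTG), 1.6% (ATGCAAAT) and 3.29% (CATTGTT) of 32851 promoters of this length. The promoter table held 10 entries for 9 of the 10 genes, 2 of them for Pax6. Matches were found in 3 of these entries. The first Pax6 promoter had GGGCGTG, whose first base lay 207 bases before the start. Ptprz1 had the same motif on the opposite strand 101 bases before the start, and Olig2 had CATTGTT 68 bases before it. Vim and Nes had no match to these letters in the window, which says nothing of binding there.

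All 10 genes had a Klf4 peak in at least 1 asynchronous library, against 66.3% of protein-coding genes, and 8 of 10 in at least 1 mitotic library, against 45.1%. With lists of equal length within the antibody these counts were 4 and 5 of 10. With a −log10 q of at least 5 they were 8 asynchronous and 3 mitotic (Nes, Vim and Slc1a3). The shares of all genes were not computed for these settings. H3K27ac peaks lay at 9 of 10 in asynchronous cells (74.5% of all genes) and 7 of 10 in mitosis (71.3%). Sox2 peaks were at 4 of 10 asynchronous (10.9%) and 3 of 10 mitotic (15.1%). Oct4 peaks were at 1 of 10 asynchronous (13.6%), namely Pax6, and 4 of 10 mitotic (18.2%), all 4 from mitotic library 2. A peak of each of the 3 factors in some library was seen at Nes, Sox11, Pax6 and Slc1a3, 4 of 10 genes against 10.8% of all. Of these only Nes had a peak of every factor at a −log10 q of at least 5, a limit not set for the share of all genes. The only Oct4 peak had a −log10 q of 1.61 at Sox11 and 2.06 at Slc1a3. At Pax6 the highest value was 3.92 for Klf4 and 2.54 for Sox2. The genes had peaks in 5 to 14 of the 16 lists with a median of 8, against a median of 6 over all genes. Gene windows had a median of 48.5 kb here and 57.2 kb over all genes, and the window of Ptprz1, at 217.6 kb, was the widest of the 10. Nes was marked in 14 lists, Vim and Slc1a3 in 10, Sox11 and Pax6 in 9, Sox1 and Olig1 in 7, and Olig2, Ptprz1 and Pou3f2 in 5.

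**Figure D1:**
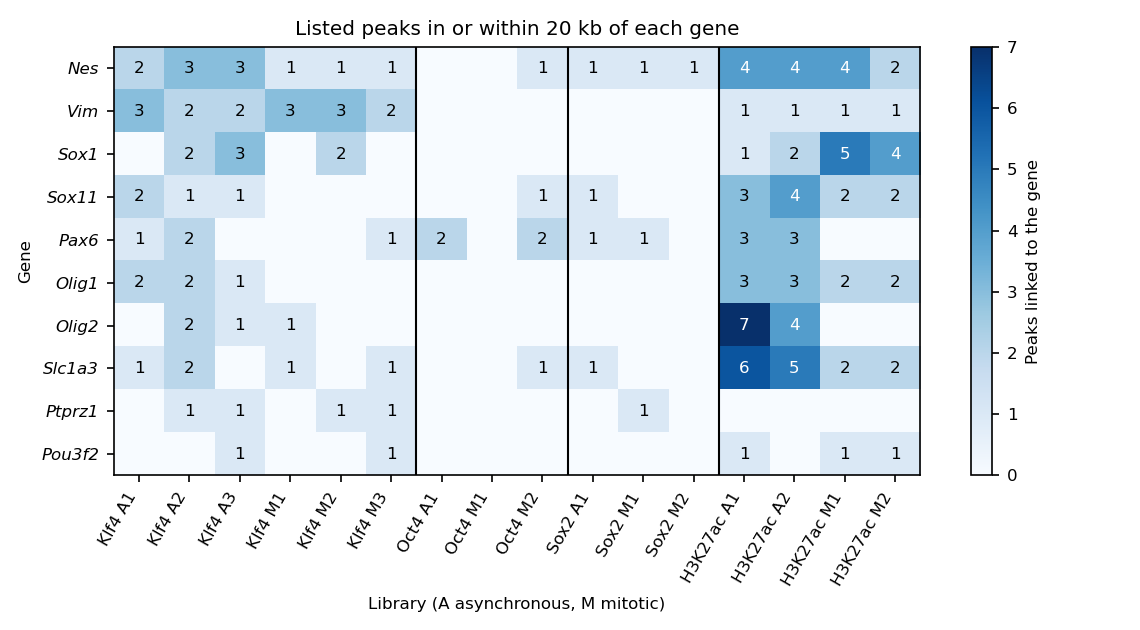
Number of listed peaks (colour and digit) linked to each of the 10 genes (rows) in each of the 16 libraries (columns, A asynchronous, M mitotic), empty cells standing for 0. Nes has peaks in 14 libraries, Vim has Klf4 and H3K27ac peaks only, and Olig2 has up to 7 H3K27ac peaks in asynchronous cells and none in mitosis.

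The lists ranged from 1246 to 47475 peaks. Read depth was unknown, so a missing peak can mean weak signal as well as none. In a pool of cells, fewer cells carrying a protein at a site and less of it per cell cannot be told apart. Nothing in the labels says that libraries of a group came from separate cultures, so tests measure only the spread between libraries. The sample titles begin with a code whose meaning the labels do not give, and libraries were grouped by this title prefix. The 2 states of H3K27ac had different prefixes, so state and prefix cannot be told apart there. Klf4 asynchronous 3 and mitotic 3, and all Oct4 and Sox2 libraries, shared 1 prefix, and the other Klf4 libraries of the 2 states had separate ones. Klf4 mitotic 1 and 2 had the same prefix as both mitotic H3K27ac libraries. As a check of the cells, 15 of 15 naive stem cell genes had H3K27ac peaks in asynchronous libraries and 14 of 15 in mitotic ones. Of 10 feeder fibroblast genes 7 and 5 were marked, where 74.5% and 71.3% of all protein-coding genes had such peaks. The summed H3K27ac width of the feeder genes was 26.8 and 25.8 kb in asynchronous cells against 11 and 9 kb in mitosis. Col3a1, Fn1 and Twist1 were lower in both mitotic libraries, Lum and S100a4 were higher in both, and Col1a2, Postn and Prrx1 were at 0 in both states.

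Klf4 gave 11, 17 and 13 linked peaks in the asynchronous and 6, 7 and 7 in the mitotic libraries. As a share of each list that was 0.104%, 0.0798% and 0.0790% against 0.104%, 0.184% and 0.0830%. The mean was 0.0876% ± 0.0142 (SD, n = 3) in asynchronous cells and 0.124% ± 0.0535 (SD, n = 3) in mitosis. The counts were lower in all mitotic libraries, and the shares overlapped. The mitotic lists were also shorter (3795 to 8438 peaks against 10575 to 21307). The difference of 0.0363 percentage points did not exceed the spread between libraries (exact two-sided permutation test, p = 0.2, adjusted p = 0.444, smallest possible p 0.1). Without mitotic library 2, which had the highest share, it was 0.00601. Under the title prefix shared by both states the shares were 0.0790% and 0.0830%.

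H3K27ac gave 29 and 26 linked peaks in asynchronous cells against 17 and 14 in mitosis. The share of the list was 0.0611% and 0.0559% against 0.0465% and 0.0455%, and the groups did not overlap. The mean was 0.0585% ± 0.00365 (SD, n = 2) against 0.0460% ± 0.000739 (SD, n = 2), a difference of -0.0125 percentage points (exact two-sided permutation test, p = 0.333, the smallest that 2 against 2 libraries allow, adjusted p = 0.444). The linked peaks covered 30.6 and 30.0 kb in asynchronous cells against 13.4 and 14.2 kb in mitosis.

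Oct4 had 2 linked peaks in the asynchronous library (0.0598%) and 0 and 5 in the mitotic ones (0% and 0.0947%). The 95% Wilson interval of mitotic library 1 reached 0.307%, from counting error in a list of 1246 peaks. Sox2 had 4 in the asynchronous library (0.134%) and 3 and 1 in the mitotic ones (0.0661% and 0.0515%). The Oct4 shares of the states overlapped, and the difference was 0.0349 without mitotic library 1 and -0.0598 without library 2. The asynchronous Sox2 share lay above both mitotic ones. The exact two-sided permutation test gave p = 1 for Oct4 and p = 0.333 for Sox2 (adjusted p = 1 and 0.444). With 1 against 2 libraries no p under 0.333 is possible, so the test can show neither a difference nor its absence. Peak names inside the 2 mitotic Oct4 lists give them the opposite numbers to the sample titles, and the numbers of the titles are used throughout.

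**Figure D2:**
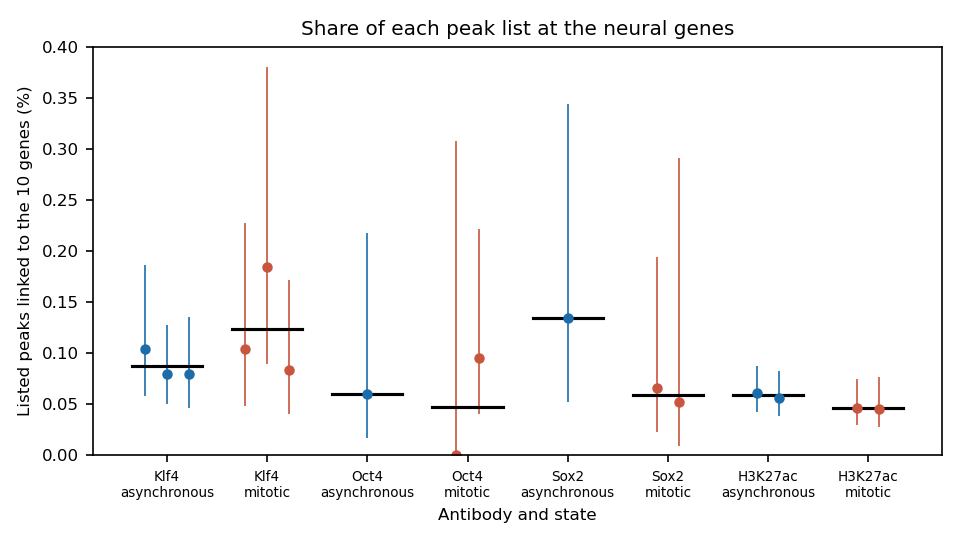
Share of each peak list linked to the 10 genes (y axis, percent), by antibody and state (x axis); points are libraries with their 95% Wilson interval, black lines are group means. The 3 mitotic Klf4 libraries lie between 0.0830% and 0.184% and overlap the asynchronous ones, while the H3K27ac libraries lie between 0.0455% and 0.0611%.

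Between antibodies, 6 pairs were compared over all libraries of both states. Klf4 lists had a mean share of 0.106% ± 0.0403 (SD, n = 6), H3K27ac 0.0523% ± 0.00752 (SD, n = 4), Oct4 0.0515% ± 0.0479 (SD, n = 3) and Sox2 0.0839% ± 0.0440 (SD, n = 3). The share of H3K27ac was 0.0535 percentage points under that of Klf4 (exact two-sided permutation test, p = 0.0190, adjusted over 6 pairs p = 0.114). Without Klf4 mitotic library 2, which had the highest share, the difference was -0.0377 and the exact permutation test gave an adjusted p of 0.0476. Within asynchronous libraries it was -0.0291 (exact permutation p = 0.1) and within mitotic ones -0.0779 (exact permutation p = 0.2). Under the title prefix shared by these 2 antibodies, mitotic Klf4 libraries 1 and 2 had 0.104% and 0.184%. Both mitotic H3K27ac libraries, with 0.0465% and 0.0455%, lay under them, and this was not tested. The other 5 pairs differed by -0.0543 (Oct4 minus Klf4) to 0.0324 percentage points (Sox2 minus Oct4), with adjusted p between 0.190 and 0.971 in the same exact permutation tests. Leaving out 1 library moved several of them. Without Oct4 mitotic library 1, Oct4 minus Klf4 was -0.0285, Sox2 minus Oct4 0.00667 and H3K27ac minus Oct4 -0.0250, while the last was 0.0224 without Oct4 mitotic library 2 and Sox2 minus Oct4 0.0540. Without the asynchronous Sox2 library, Sox2 minus Klf4 was -0.0469, Sox2 minus Oct4 0.00736 and H3K27ac minus Sox2 -0.00657. Sox2 minus Klf4 was -0.00571 without Sox2 mitotic library 2, -0.0130 without Sox2 mitotic library 1 and -0.00613 without Klf4 mitotic library 2, and H3K27ac minus Sox2 was -0.0478 without Sox2 mitotic library 2. Under the title prefix that held Klf4, Oct4 and Sox2, the differences were -0.0295 (Oct4 minus Klf4), 0.00290 (Sox2 minus Klf4) and 0.0324 (Sox2 minus Oct4), with exact permutation p of 0.6, 1 and 0.5.

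Peaks of all libraries of an antibody that overlapped by at least 1 bp were merged into regions. A region was in the asynchronous set when 2 of 3 Klf4 libraries, both H3K27ac libraries or the single Oct4 or Sox2 library had a peak in it. Kept regions of this set had peaks in 2 or more mitotic libraries, intermediate ones in 1 and lost ones in 0. At the 10 genes Klf4 had 25 regions, of which 14 were in the asynchronous set and 11 were in too few libraries for it. Of the 14, 5 were kept (35.7%, 95% Wilson interval 16.3 to 61.2%), 4 intermediate and 5 lost, where over all regions 26.9% were kept and 44% lost. Klf4 asynchronous library 2 carried most of this set: without it 2 regions were left, and both were kept. The set had 9 regions without library 1 and 8 without library 3. When any 1 of the 3 mitotic libraries was left out, 3 of 14 regions (21.4%) were kept. With a Klf4 library left out, both others of its state had to have a peak. This rule is stricter, so the counts could only fall or stay. The share over all regions was not computed for it. For H3K27ac 20 of 31 regions were in the asynchronous set. Of these 6 were kept (30%, 14.6 to 51.9%) against 46.1% over all regions, and 9 were lost (45%) against 39.4%. Where only 1 library of a state was left, a peak in it was enough for the set or for a kept region. Under that looser rule the kept share was 45.5% (10 of 22) without mitotic library 2 and 22.2% (6 of 27) without asynchronous library 2. Another 2 had peaks in both mitotic and in no asynchronous library, a class that held 26.7% of all regions with a peak in both mitotic libraries. Sox2 had 5 regions, of which 4 were in the asynchronous set. Of these 4, 1 was kept and 2 were lost (all regions 40.9% and 28.4%). Without mitotic library 2, where a peak in library 1 was enough, 2 of 4 (50%) were kept. Oct4 had 5 regions, of which 2 were in the asynchronous set. Of these 2 none was kept or lost (24.6% and 36.2%). Both had a peak in mitotic library 2, which alone was enough to count them as kept without mitotic library 1. The asynchronous Klf4 regions overlapped asynchronous H3K27ac regions in 9 of 14 cases (64.3%), against 70.6% of all.

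**Figure D3:**
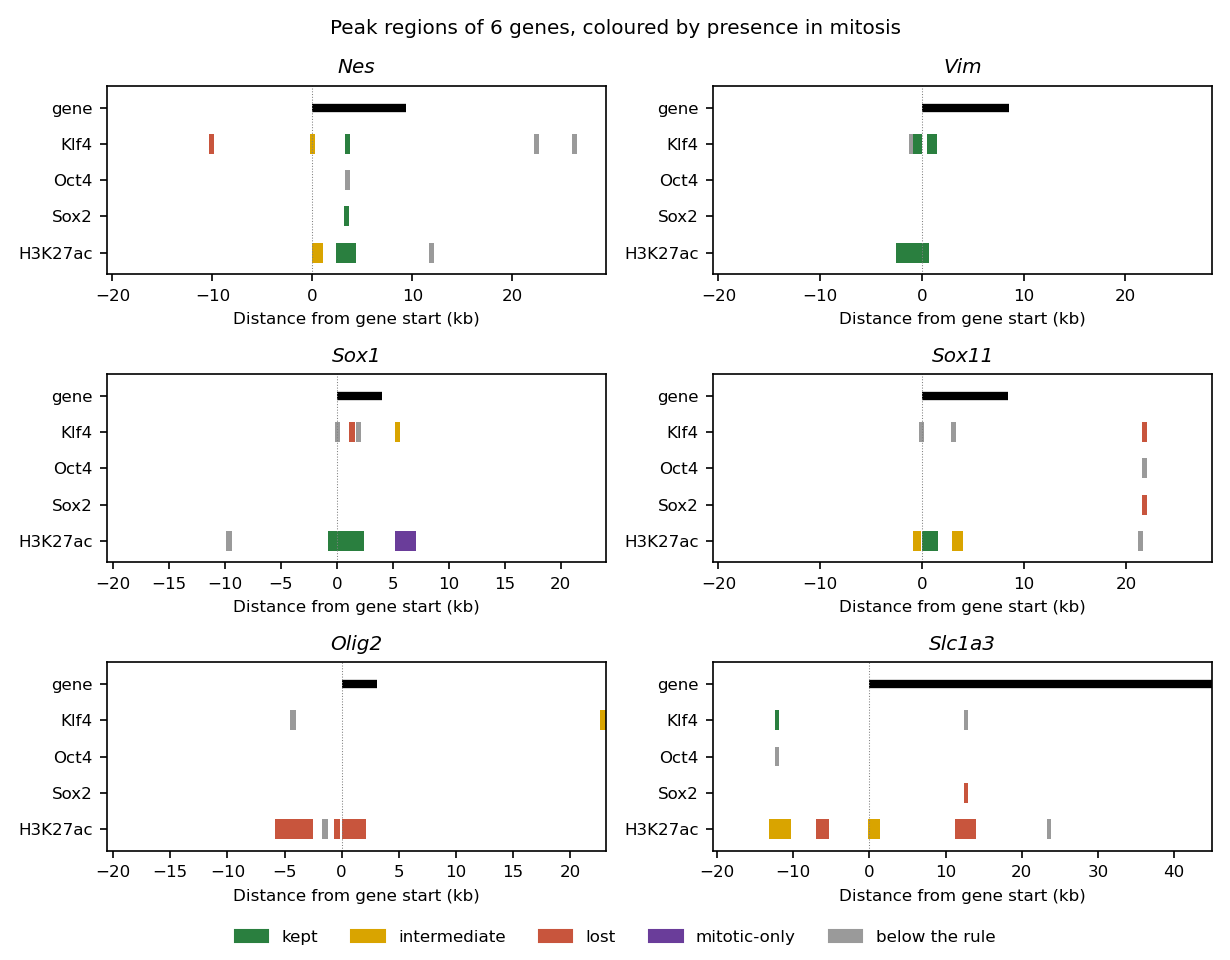
Merged peak regions at 6 of the genes by distance from the gene start in kb (x axis, downstream positive), with rows for the gene span and the 4 antibodies, coloured by presence in mitosis; regions under 0.5 kb are drawn at that width, and the Slc1a3 panel stops before the gene's far end. Nes has kept regions of Klf4, Sox2 and H3K27ac at 1 place inside the gene, Vim has kept regions at its start, and every H3K27ac region of Olig2 that is in the asynchronous set is lost.

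Nes encodes nestin, the intermediate filament by which neural stem cells are commonly recognised, and had peaks of all 4 antibodies at 1 site about 3.5 kb inside the gene. The Klf4 region chr3:87974347-87974895 had a fold enrichment over local background of 4.24 and 4.64 in asynchronous libraries 1 and 2 and of 6.74 and 5.37 in mitotic libraries 1 and 2, with no peak in either library 3. By fold within its own list the peak stood at percentiles 18.5 and 82.0 in asynchronous cells and 89.6 and 67.3 in mitosis. The site was thus listed in both states in the same numbers of libraries, with higher folds in mitosis and percentiles that overlapped. Sox2 had a fold of 8.23 there in asynchronous cells and 5.27 and 4.69 in mitosis (chr3:87974332-87974619, kept). Oct4 had a peak only in mitotic library 2, with a fold of 5.26. The H3K27ac region around it, chr3:87973469-87975500, had folds of 6.69 and 7.47 in asynchronous cells against 4.65 and 5.76 in mitosis, so it was kept with lower folds. The percentiles within the lists, 57.1 and 63.8 against 48.0 and 61.4, overlapped.

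The other Klf4 regions of Nes were lost, intermediate or in too few libraries to be called. A region 10.12 kb upstream, 7.41 kb from Crabp2, had folds of 2.88 and 6.90 in asynchronous libraries 2 and 3 and was lost. The region over the start, which overlaps the Nes promoter printed above, had folds of 2.77 and 6.08 in asynchronous libraries 2 and 3 and 3.52 in mitotic library 3. Another 2 regions beyond the gene lay inside the neighbouring gene Bcan and were each seen in 1 library.

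Vim encodes vimentin, a filament of progenitors that fibroblasts also make. Klf4 peaks lay there in all 6 libraries, as at Nes (2 of 10 genes, against 11.9% of all), and 2 regions had a peak in each of the 6. The region over the start, chr2:13573441-13574347, had folds of 5.39, 4.41 and 11.04 in asynchronous cells against 7.36, 5.39 and 5.63 in mitosis. The region 0.97 kb inside the gene, chr2:13574809-13575755, had 5.78, 5.27 and 12.82 against 6.06, 4.72 and 7.10. In both regions asynchronous library 3 was the highest and the states overlapped. Another region, 1.03 kb upstream, was seen in mitotic library 1 only, and no Oct4 or Sox2 list had a peak at Vim.

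H3K27ac at Vim was a single kept region, chr2:13571737-13575030. Its fold was 5.59 and 6.32 in asynchronous cells against 10.18 and 9.51 in mitosis, so both mitotic values lay above both asynchronous ones. By fold within its own list the peak stood at percentiles 44.6 and 53.8 in asynchronous cells and 88.9 and 85.6 in mitosis. Of the 6 genes with an H3K27ac peak in all 4 libraries Vim was the only 1 whose strongest fold was higher in both mitotic libraries (9.14% of all such genes), and the other 5 were lower in both (79.6%). The median fold of the whole lists was 6.03 and 5.95 in asynchronous cells against 4.65 and 5.06 in mitosis. In sum the feeder fibroblast genes had fewer kb of H3K27ac in mitosis, with single genes going both ways, as given above. The part of feeder cells in the Vim values was not tested.

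**Figure D4:**
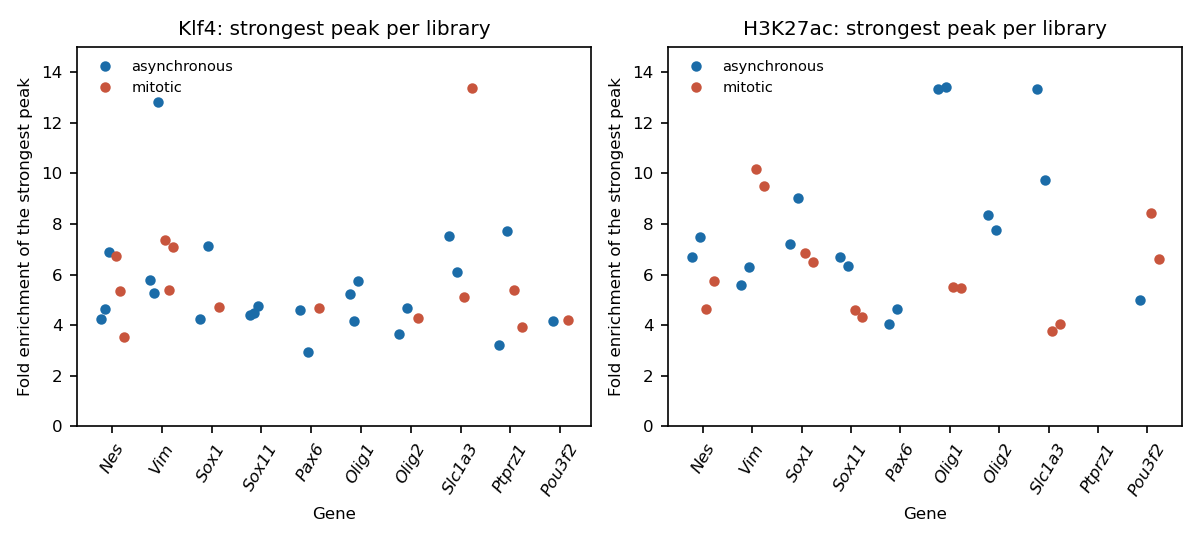
Fold enrichment of the strongest linked peak (y axis) at each gene (x axis) for Klf4 (left) and H3K27ac (right), one point per library that lists a peak. For H3K27ac the mitotic points lie above the asynchronous ones at Vim (10.18 and 9.51 against 5.59 and 6.32) and below them at Olig1 (5.52 and 5.48 against 13.34 and 13.41).

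Sox1 is among the earliest transcription factors of the neural plate, and its H3K27ac peaks covered more sequence in mitosis. Their summed width was 2.28 and 2.82 kb in asynchronous cells against 4.43 and 3.82 kb in mitosis, and the groups did not overlap. The region over the gene, chr8:12394728-12397903, was kept, with folds of 7.22 and 9.03 against 6.87 and 6.49. Within their own lists these stood at percentiles 61.5 and 73.1 against 75.8 and 69.6, which overlapped. A second region beyond the gene end, chr8:12400720-12402570, was seen in mitosis only, with low folds of 4.32 and 3.58. Klf4 had 4 regions at Sox1. That at 1.34 kb past the start (chr8:12396678-12397035) had folds of 2.86 and 3.88 in asynchronous libraries 2 and 3 and was lost. That at 5.43 kb (chr8:12400710-12401192) had 4.24 and 7.14 in the same libraries and 4.45 in mitotic library 2, and it overlapped the H3K27ac region seen in mitosis only. The remaining 2 were each in 1 library. No Oct4 or Sox2 list had a peak at Sox1.

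Sox11, a SoxC factor of maturing neuroblasts, had 1 site listed for all 3 factors, 13.37 kb beyond the end of the gene. Klf4 had folds of 4.42 and 4.50 there in asynchronous libraries 1 and 2 and no mitotic peak (chr12:27320723-27321074, lost). Sox2 had a fold of 8.44 in the asynchronous library and was also lost, while Oct4 had a single peak, in mitotic library 2, with a fold of 3.88. Another 2 Klf4 regions, at 3.11 kb and over the start, were each in 1 asynchronous library. The widest H3K27ac region, chr12:27341183-27342715, had folds of 4.70 and 4.64 in asynchronous cells against 3.49 and 3.66 in mitosis. The summed H3K27ac width was 2.68 and 2.80 kb against 0.959 and 0.847 kb in mitosis. The widest region lay just inside the gene and ended short of the start, where the H3K27ac peaks over the promoter were listed in asynchronous libraries only. An intermediate region, chr12:27342818-27343583, reached upstream from the promoter, with folds of 6.69 and 6.34 in asynchronous cells. It also had a peak in mitotic library 1, with a fold of 4.61, which did not reach the promoter.

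Pax6, a paired box factor of the forebrain and eye, was the only gene of the 10 with an Oct4 peak in asynchronous cells. The Oct4 regions at 8.65 kb past the start (chr2:105677356-105677739) and 22.43 kb (chr2:105691194-105691455) had folds of 3.63 and 4.40 there and 6.39 and 4.30 in mitotic library 2. The second site was shared with Sox2, with a fold of 4.68 in the asynchronous library and 3.85 in mitotic library 1. The first was shared with Klf4 (chr2:105677674-105678072), at 4.62 and 2.95 in asynchronous libraries 1 and 2 and 4.70 in mitotic library 3. A second Klf4 region, at 11.84 kb, was in 1 asynchronous library. Factor peaks were thus listed at Pax6 in both states, many of them low in their lists. The Oct4 folds stood at percentiles 2.1 and 16.2 in asynchronous cells and 66.3 and 9.7 in mitotic library 2. For Sox2 they stood at 11.1 and 3.9, and for the shared Klf4 region at 39.5, 33.4 and 47.3. The H3K27ac peaks were also weak and were asynchronous only, with a summed width of 1.42 and 1.29 kb and none in mitosis. The widest H3K27ac region, chr2:105691520-105692208, had folds of 4.04 and 4.64, at percentiles 10.3 and 27.9 of its lists, and lay beside the Oct4 and Sox2 site.

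Olig1 and Olig2 are neighbouring bHLH factors of the oligodendrocyte and motor neuron lineage, and both had less H3K27ac in mitosis. At Olig1 a pair of regions about 13 to 15 kb from the gene, on the side of Olig2, was kept. The first, chr16:91254117-91255377, had folds of 13.34 and 13.41 in asynchronous cells against 3.78 and 5.19 in mitosis. The widest, chr16:91255565-91257888, had 9.81 and 10.22 against 5.52 and 5.48. The region over the gene, chr16:91269706-91271829, had 7.69 and 9.45 and was lost. Summed width at Olig1 was 5.08 and 4.99 kb against 1.89 and 2.67 kb. The 2 Klf4 regions of Olig1 lay at the kept H3K27ac regions. The one at chr16:91254118-91254430 had folds of 5.24 and 3.47 in asynchronous libraries 1 and 2. The one at chr16:91255090-91255724 had 3.94, 4.16 and 5.75 in all 3. Neither had a peak in any mitotic library, so at this place the mark was listed in mitosis without the Klf4 peaks.

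At Olig2 the H3K27ac peaks covered 6.39 and 5.24 kb in asynchronous cells and none was listed in mitosis. The 4 regions of the asynchronous set were all lost. The widest, chr16:91219759-91222085, had folds of 4.37 and 4.56, and the one over the gene, chr16:91225578-91227677, had 7.14 and 7.75. The Olig2 promoter printed above was overlapped by H3K27ac peaks of both asynchronous libraries, counting also the 50 bases after the start. Most of the printed bases, with the motif match, lay in no listed H3K27ac region. They fell between the region ending at chr16:91225340 and the one beginning at chr16:91225578. Having H3K27ac peaks in both asynchronous and no mitotic library was shared by Pax6, so 2 of the 9 marked genes did so, against 6.57% of all marked genes. This count changed genes with the setting: it held for Olig2 alone with lists of equal length, for Olig2 and Slc1a3 with a −log10 q of at least 5, for Pax6, Olig1 and Olig2 with a window of 5 kb, and for Pax6 and Ptprz1 but not Olig2 with one of 50 kb. Klf4 had a region at 4.23 kb upstream in 1 asynchronous library and an intermediate one, chr16:91248277-91248526, with folds of 3.64 and 4.69 in asynchronous libraries 2 and 3 and 4.30 in mitotic library 1. The latter lay at the edge of the window: peaks there were inside at 19.752 kb (Klf4, asynchronous 2, fold 3.64), 19.774 kb and 19.94 kb (H3K27ac, asynchronous 1, fold 7.36) and just outside at 20.036 kb (H3K27ac, asynchronous 2, fold 10.86). No Oct4 or Sox2 list had a peak at Olig1 or Olig2.

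Pou3f2, a POU factor of cortical neurons also known as Brn2, had few peaks. A Klf4 region over the start was seen only under the title prefix that held Klf4 libraries of both states, with folds of 4.16 in asynchronous and 4.22 in mitotic library 3. Its widest H3K27ac region, chr4:22469510-22470870, lay 11.90 kb beyond the gene and was seen in mitosis only, with folds of 8.43 and 6.63. These stood at percentiles 83.7 and 70.6 of their lists. The start had a weak H3K27ac peak in asynchronous library 1 only (fold 4.98). Summed width was 0.412 and 0 kb against 1.26 and 1.32 kb, so Pou3f2 and Sox1 were the 2 of 9 marked genes with wider H3K27ac in both mitotic libraries, against 22% of all marked genes. With a window of 5 kb only Sox1 remained in this count, and with a −log10 q of at least 5 only Pou3f2.

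Slc1a3 encodes the glial glutamate transporter GLAST. With a window of 116.7 kb (median 48.5 kb), it had the largest summed H3K27ac width of the 10 genes in asynchronous cells. Its summed width was 7.49 and 7.92 kb there and 0.829 and 0.817 kb in mitosis. The widest H3K27ac region, chr15:8721141-8724004 about 12 kb upstream, had folds of 12.01 and 9.19 in asynchronous cells and 3.30 in mitotic library 2 only. Inside it lay a kept Klf4 region, chr15:8722627-8723249, with folds of 7.54 and 6.11 in asynchronous libraries 1 and 2 and 5.10 and 13.37 in mitotic libraries 1 and 3. The last was at percentile 98.6 of its list, and Oct4 had a peak at the same place in mitotic library 2 (fold 4.64). Klf4 was thus listed in 2 mitotic libraries where H3K27ac was listed in 1 with a low fold, the reverse of the Olig1 regions. A second H3K27ac region, 12.60 kb inside the gene (chr15:8696788-8699617), had folds of 13.34 and 9.73 and was lost. Sox2 had a peak inside it in asynchronous cells (fold 5.82), also lost, and Klf4 had a peak there in asynchronous library 2 only (fold 2.88).

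Ptprz1, a receptor-type phosphatase of radial glia, was the only 1 of the 10 genes without H3K27ac in any list, as were 21.4% of all genes. It had a kept Klf4 region at its start, chr6:22875128-22875627, with folds of 3.21 and 7.72 in asynchronous libraries 2 and 3 and 5.39 and 3.93 in mitotic libraries 2 and 3. This region holds the GGGCGTG match printed above. Sox2 had a peak at the start in mitotic library 1 only, with a fold of 7.81. The start of Ptprz1 was thus listed for a factor in 5 libraries and never for the mark.

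Over the set, H3K27ac summed width was lower in both mitotic than in both asynchronous libraries at 6 of 9 marked genes (Nes, Olig1, Olig2, Pax6, Slc1a3 and Sox11), against 53.4% of all marked genes. The median log2 ratio of mitotic to asynchronous width, with 100 bp added to each, was -1.11 here and -0.40 over all marked genes. In the other lists it was -1.48 (feeder fibroblast genes), -0.60 (other neural genes) and -0.53 (naive stem cell genes), so the 10 genes lay between them. Lists of equal length left 4 of these genes lower in both (Nes, Olig1, Olig2 and Slc1a3). For Klf4 the width was lower in every mitotic than in every asynchronous library at 3 of 10 genes (Nes, Olig1 and Sox11), against 18.6%, and higher at 0, against 0.0338%. Here the median log2 ratio was -0.66 against -1.05 over all genes with a Klf4 peak, -1.57 in the other neural genes, -0.95 in the naive stem cell genes and -0.92 in the feeder fibroblast genes.

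**Figure D5:**
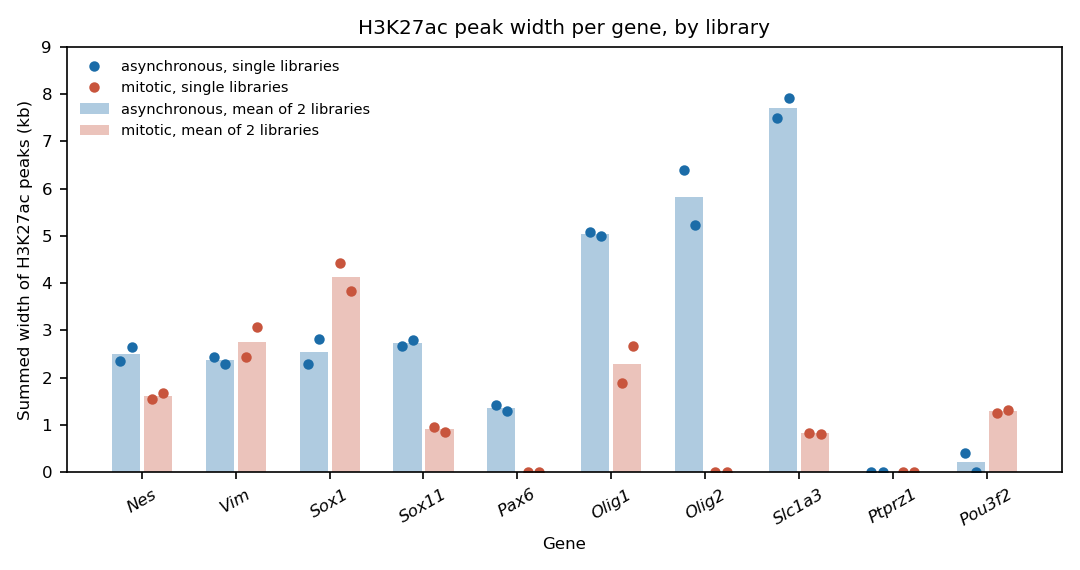
Summed width of H3K27ac peaks in kb (y axis) linked to each gene (x axis) in the 2 asynchronous and 2 mitotic libraries (points), bars giving the mean of each state. Mitotic values lie below asynchronous ones at 6 genes, most widely at Slc1a3 (0.829 and 0.817 against 7.49 and 7.92 kb) and Olig2 (0 against 6.39 and 5.24 kb), and above them at Sox1 and Pou3f2.

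Promoter windows (250 bases before to 50 after the start) gave a closer view of the starts. Klf4 peaks overlapped those of Nes (2 asynchronous and 1 mitotic library), Vim (1 and 2), Sox1 (0 and 1), Sox11 (1 and 0), Ptprz1 (2 and 2) and Pou3f2 (1 and 1), while 30.8% of the promoters of protein-coding genes had a Klf4 peak in some library. H3K27ac peaks overlapped those of Vim and Sox1 in all 4 libraries, those of Sox11 and Olig2 in both asynchronous and no mitotic ones, and those of Nes, Slc1a3 and Pou3f2 in 1 asynchronous library (51.1% of all in some library). The Sox2 peak at Ptprz1 was the only one of that factor at a promoter here (0.343% of all), and Oct4 had none (1.18%). Neither Pax6 promoter was overlapped by any peak.

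Of 40 other neural genes, 31 had a Klf4 peak in asynchronous and 18 in mitotic cells, 12 and 14 an Oct4 peak, 8 and 10 a Sox2 peak, and 33 and 31 H3K27ac. They were marked in a median of 6.5 lists. The 6 marked in the most lists were the receptor Notch1 (14), its ligand Dll1, the homeobox factor Meis2 and the RNA-binding protein Msi1 (13 each), the anterior factor Otx2 (12) and Sox21 (11). Among those marked in the fewest lists were the proneural factor Neurog2 and the microtubule protein Dcx (1 each), and Pou3f3, Pou3f4 and Sox3 (2 each). H3K27ac width was lower in both mitotic libraries at 18 of 36 marked genes of this list and higher at 8. Mean width at Otx2 was 14.24 kb in asynchronous and 2.81 kb in mitotic libraries, and at Meis2 7.88 and 1.21 kb. Values at Notch1 were 15.35 and 12.02 kb, a smaller difference than at Otx2.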

How the data were processed

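Peak lists of 16 stem cell libraries were used. The 7 inputs and the Klf4 library from a mix with neural progenitors were not used here. Per the submitters' processing notes, cutadapt 1.8.1, Bowtie2 2.2.5, mm10, deepTools 2.3.6 and MACS2 2.1.1 were used. Each deposited list held the peaks of 1 library, with a fold (ratio of signal to local background) and p and q values that the authors gave as −log10. The lowest −log10 p in the lists was 5. Summits were absent, so midpoints were used. Genes came from the mm10 RefSeq table (GRCm38.p6), without mitochondrial genes. Widths are in bp of listed peaks. Linking, merging and tests ran in Python 3.11.15, numpy 2.4.6 and pandas 2.3.3, with figures from matplotlib 3.10.9, and were tested on simulated data. Exact permutation tests counted every arrangement of libraries by the absolute difference of means, with Benjamini-Hochberg adjustment over 4 antibodies or 6 pairs. Intervals are Wilson at 95% and cover counting error only. All 10 genes are named, every factor region is accounted for, and of the H3K27ac regions the widest of each gene is given. Other H3K27ac regions were chosen for the text after their values were seen, as were the comparisons of summed width and strongest fold. The genes and lists were chosen with earlier results of these data known. Of the other neural genes, those with peaks in the most and in the fewest lists are named, and 1 gene is not reported here. Alternatives were windows of 5 and 50 kb, a −log10 q of at least 5, lists of equal length (the strongest by p, as many as in the antibody's shortest list), any overlap with the window, an overlap of 50%, and each library left out.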

Additional observations from a re-analysis of the deposited data

How the results depend on the processing

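Nothing in the labels says that title numbers pair the samples. A replicate block on the numbers of H3K27ac, by sign flips, gave the same difference of -0.0125 and an exact permutation p of 0.5, the smallest it allows. The numbers of the other antibodies gave fewer than 2 pairs.

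The Oct4 difference between states was 0.0464 with a −log10 q of at least 5 and ran from -0.0598 to 0.0349 with a library left out. H3K27ac minus Oct4 ran from -0.0250 to 0.0224, and H3K27ac minus Klf4 from -0.0588 to -0.0377, with an adjusted p of 0.0476 without Klf4 mitotic library 2 in the exact permutation test. Of 109 alternatives to the 10 tests this was the 1 with an adjusted p under 0.05. Leaving out a library also made the rule for kept regions stricter or looser, as given above. The kept share of Klf4 regions was 100% (2 of 2) with lists of equal length and ran from 21.4% to 100% with a library left out. That of Oct4 ran from 0% to 100%, that of H3K27ac from 22.2% to 45.5% and that of Sox2 from 25% to 50%, and the last was 0% with the q limit. With that limit no asynchronous Oct4 region was left at these genes, nor with lists of equal length.

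Counts of genes were added after seeing the data, and their shares over all genes were computed for the main setting only. Wider H3K27ac in both mitotic libraries held for 1 gene with the window of 5 kb (Sox1) and 1 with the q limit (Pou3f2). H3K27ac peaks only in asynchronous libraries held for 1 gene (Olig2) with lists of equal length, for Pax6 and Ptprz1 with the 50 kb window and for Olig2 and Slc1a3 with the q limit. With lists of equal length Klf4 marked 4 genes in asynchronous and 5 in mitotic libraries, and with the q limit 8 and 3. Depth was unknown, and lists of 1246 to 5282 Oct4 peaks limit what can be said of that factor.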
